A study of Mus musculus with 2 samples.

Results

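The 7 genes Tcf7l2, Rgs16, Lef1, Prkcd, Slc17a6, Ntng1 and Calb2 are commonly used to mark neurons of the thalamus, and were found by symbol among the 19465 genes listed for each of 2 spatial transcriptomics libraries. They were chosen with their levels in the 2 libraries and their co-detection over spots already known, so those values are given below as descriptions. The libraries come from sections of nude mice, a strain that lacks a thymus and therefore most T cells. 1 library was labelled with a flat implant and 1 with a micropillar implant, and the labelled tissue of both is bone, in a series on surface microtopography and bone regeneration. No age, sex or section position is given in the labels used here. With 1 library in each group there is no replicate check and no test between the implants, and every interval below is a 95% interval that covers counting error alone.

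The sections held much more than bone. Bglap, the osteoblast product osteocalcin, was measured with 294 UMIs (counts of distinct tagged molecules) in the flat-implant library and 483 in the micropillar-implant library, while Snap25, a protein of the synaptic release machinery, had 7814 and 9056. Ibsp, a bone matrix glycoprotein, had 0 UMIs in the flat-implant library and 9 in the micropillar-implant library. After spots with fewer than 100 UMIs were left out, the flat-implant library kept 2681 of 3161 spots with a median of 602 UMIs and the micropillar-implant library kept 3064 of 3303 spots with a median of 831. The libraries share 2135 spot barcodes, 67.5% of those in the flat-implant library and 64.6% of those in the micropillar-implant library.

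The thalamus relays sensory and motor signals to the cerebral cortex, and most of its projecting neurons are glutamatergic. In the mouse, Tcf7l2 encodes a transcription factor that acts with beta-catenin and is needed for the postmitotic identity of thalamic and habenular neurons, and Lef1 encodes a related factor of the same family. Rgs16 encodes a regulator that speeds the switching-off of G-protein signals, and Prkcd encodes the delta form of protein kinase C. Slc17a6 encodes the vesicular glutamate transporter VGLUT2, Ntng1 encodes netrin-G1, an adhesion protein of axons, and Calb2 encodes calretinin, a calcium-binding protein. None of these genes is limited to the thalamus: Lef1 is also active in hair follicles, Prkcd in epidermis and blood cells, Rgs16 in the suprachiasmatic nucleus of the hypothalamus, and Slc17a6 and Calb2 in many hypothalamic neurons.

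To describe the members in places chosen without them, spots were sorted by lists of other genes. Each list was scored in each spot as its observed UMIs plus 1 over its expected UMIs plus 1. Spots led by skin and hair, skeletal muscle, or matrix and marrow genes at a score of at least 1.5 were set apart. The remaining 1565 spots of the flat-implant library and 2067 of the micropillar-implant library are called brain spots; Snap25 stood at 4037 counts per 1000000 UMIs (CPM) in the former and 3315 CPM in the latter. This wider set was adopted after the data were seen, since the rule first written, which also asked for a high neuronal score, kept 298 and 420 spots. Brain spots whose leading neural list scored at least 2 were named by that list, and those led by 16 other thalamic genes (Adarb1, Amotl1, Plekhg1, Plcb4, Synpo2, Tnnt1, Ramp3, Cacna1g, Shox2, Lhx9, Gbx2, Slitrk6, Necab1, Zic1, Zic4 and Rora) are called thalamic-list spots. Since a spot is a patch of tissue that may take in several cells, these are classes of regions and not of cells.

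All 7 members are protein-coding genes in the GENCODE annotation of mouse build GRCm38 (mm10). Tcf7l2 spans chr19:55741820-55933654, Rgs16 chr1:153740349-153745468 and Lef1 chr3:131110471-131224356, all on the plus strand. Prkcd spans chr14:30595354-30626210, Ntng1 chr3:109780040-110144011 and Calb2 chr8:110137502-110168210, all on the minus strand, and Slc17a6 spans chr7:51622006-51671119 on the plus strand. Prkcd and Calb2 overlap 0 other annotated genes there, and each of the other 5 overlaps 1 or 2, such as Ppnr for Tcf7l2; how shared reads were counted is not stated in the labels.

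The RefSeq promoter table for build GRCm38.p6 held 6 of the 7 members. The promoters of Tcf7l2, Rgs16 and Ntng1 are shown because these 3 members had the highest ratios in thalamic-list spots of the micropillar-implant library. Each runs from 250 bases before to 50 bases after the most upstream start in the table, 5′ to 3′ on the gene's own strand. Capitals mark the core of the motif bound by TCF and LEF factors, CTTTG or its reverse CAAAG.
Tcf7l2, chr19:55741560-55741859, plus strand: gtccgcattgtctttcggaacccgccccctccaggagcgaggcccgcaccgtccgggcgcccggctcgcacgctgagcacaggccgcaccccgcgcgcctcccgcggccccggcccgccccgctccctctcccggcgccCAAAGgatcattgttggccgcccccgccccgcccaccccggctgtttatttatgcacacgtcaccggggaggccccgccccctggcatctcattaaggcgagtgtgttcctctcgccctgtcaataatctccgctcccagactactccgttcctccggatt
Rgs16, chr1:153740103-153740402, plus strand: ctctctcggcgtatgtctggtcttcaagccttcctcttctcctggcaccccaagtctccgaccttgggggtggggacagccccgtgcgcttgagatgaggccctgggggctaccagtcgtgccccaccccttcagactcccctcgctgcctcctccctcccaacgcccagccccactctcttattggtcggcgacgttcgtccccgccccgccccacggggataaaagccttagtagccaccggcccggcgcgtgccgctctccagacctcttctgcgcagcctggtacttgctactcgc
Ntng1, chr3:110143423-110143722, minus strand: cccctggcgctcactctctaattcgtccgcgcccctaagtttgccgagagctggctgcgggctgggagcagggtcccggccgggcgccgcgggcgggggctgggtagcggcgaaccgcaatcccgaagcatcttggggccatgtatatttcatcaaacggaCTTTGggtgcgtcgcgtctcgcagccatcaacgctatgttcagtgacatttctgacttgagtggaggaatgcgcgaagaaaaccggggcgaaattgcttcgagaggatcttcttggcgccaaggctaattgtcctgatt
The Tcf7l2 promoter held 1 match, the Ntng1 promoter 1 and the Rgs16 promoter 0. Over the 6 members in the table, 4 promoters held a match on either strand, beside 54.0% of the 27025 promoters in the table. A match to 5 letters is a description of the sequence and not a binding site.

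Among the transcription factors, Tcf7l2 had 37 UMIs in the flat-implant library, or 16.3 CPM (11.5 to 22.5), and 142 UMIs in the micropillar-implant library, or 44.7 CPM (37.7 to 52.7). The intervals do not overlap, and the log2 ratio (micropillar over flat, after 1 CPM was added to each) was 1.40 (0.92 to 2.02). Tcf7l2 was seen in 33 of 2681 spots of the flat-implant library (1.23%) and in 124 of 3064 spots of the micropillar-implant library (4.05%). When every spot was thinned to 500 UMIs and shallower spots were left out, those shares were 1.00% of 1493 spots and 2.14% of 2198 spots. In striatal-list spots, where little Tcf7l2 is expected, the share was 1.14% of 263 spots in the flat-implant library (median 1038 UMIs) and 0 of 229 spots in the micropillar-implant library (median 785 UMIs), which allows a share of up to 1.31%. The flat-implant library's share over all spots, 1.23%, was of similar size. Its striatal-list share rests on 3 spots at a median of 1038 UMIs, against 602 over all spots, so it sets no firm background.

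Lef1 was measured more thinly. It had 17 UMIs or 7.51 CPM (4.38 to 12.03) in the flat-implant library and 54 UMIs or 17.0 CPM (12.8 to 22.2) in the micropillar-implant library, with a log2 ratio of 1.08 (0.37 to 2.06). No spot of the flat-implant library held more than 1 Lef1 UMI, and the highest spot of the micropillar-implant library held 2. The micropillar library was the higher of the pair for both transcription factors.

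Of the signalling genes, Rgs16 had 23 UMIs or 10.2 CPM (6.44 to 15.2) in the flat-implant library and 100 UMIs or 31.5 CPM (25.6 to 38.3) in the micropillar-implant library. Its log2 ratio of 1.54 (0.97 to 2.35) was the highest of the 7. Rgs16 was also the most concentrated within spots, with up to 6 UMIs in a spot of either library. Prkcd stood apart from the other members, with 32 UMIs or 14.1 CPM (9.67 to 19.96) in the flat-implant library and 29 UMIs or 9.14 CPM (6.12 to 13.1) in the micropillar-implant library. Its intervals overlap, and its log2 ratio of -0.58 (-1.41 to 0.14) includes no difference.

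The genes of transmission, adhesion and calcium binding were measured more deeply. Slc17a6 had 56 UMIs or 24.7 CPM (18.7 to 32.1) in the flat-implant library and 185 UMIs or 58.3 CPM (50.2 to 67.3) in the micropillar-implant library. Ntng1 had 83 UMIs or 36.7 CPM (29.2 to 45.5) and 205 UMIs or 64.6 CPM (56.1 to 74.1). Calb2 had 104 UMIs or 45.9 CPM (37.5 to 55.7) and 337 UMIs or 106 CPM (95.2 to 118). For all 3 genes the micropillar-implant library was the higher and the intervals do not overlap. The log2 ratios were 1.20 (0.80 to 1.69) for Slc17a6, 0.80 (0.44 to 1.20) for Ntng1 and 1.19 (0.89 to 1.54) for Calb2.

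**Figure D1:**
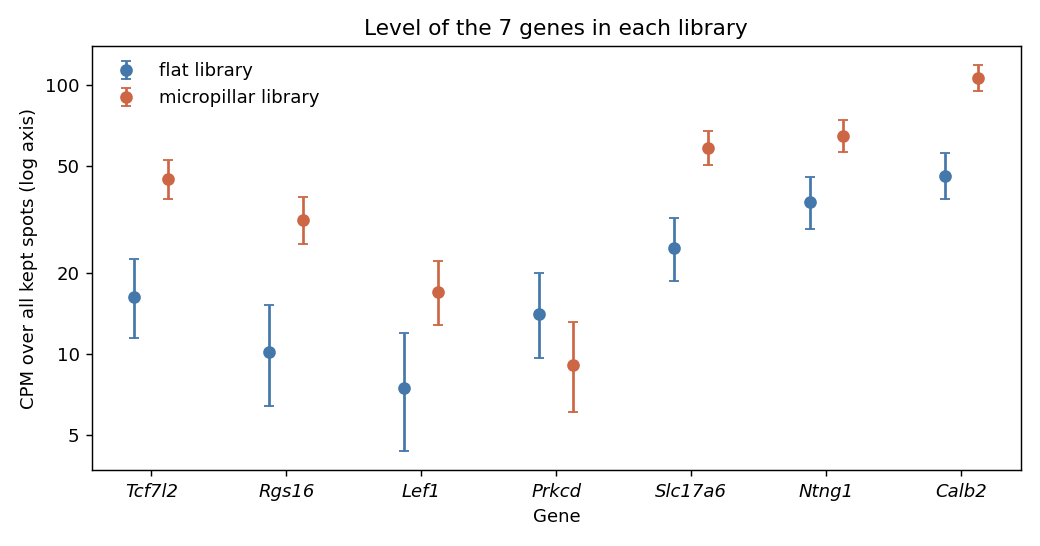
Level of each gene over all kept spots of the flat-implant library (blue) and the micropillar-implant library (orange), in CPM on a log axis. Points are the summed counts and bars their exact Poisson 95% intervals, which separate between the libraries for every gene but Prkcd.

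Over the whole sections, 6 of the 7 members were higher in the micropillar-implant library with an interval above 0, and 5 were at least 2-fold higher. Of 8077 genes with at least 20 CPM in 1 library, 55.4% were higher, 0.768% at least 2-fold higher and 0.656% at least 2-fold lower. The share with an interval above 0 was not counted over all genes. The members were chosen on this contrast, and nothing is read from their count. Lef1 and Prkcd stayed under 20 CPM in both libraries. The median log2 ratio was 1.19 over the members and 0.04 over those 8077 genes. In summed spots, fewer cells of a type and less RNA per cell cannot be told apart. With 1 section under each implant, the implant, the animal and the part of the brain in the section cannot be told apart either.

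Restricted to brain spots and scaled to their own totals, 7 of 7 members were higher in the micropillar-implant library, 6 of them with an interval above 0 and 5 of them at least 2-fold. Of the 7588 genes with at least 20 CPM in 1 library there, 55.0% were higher. At least 2-fold higher were 1.38%, and at least 2-fold lower 0.171%. The share with an interval above 0 was not counted, and nothing is read from the members' count here either. Lef1 had a larger ratio in brain spots than over the sections, with 7 UMIs in the flat-implant library and 36 in the micropillar-implant library and a log2 ratio of 1.68 (0.74 to 3.34). Prkcd had 11 and 17 UMIs there and a log2 ratio of 0.16 (-0.99 to 1.43). The ratios were 1.48 for Tcf7l2, 1.63 for Rgs16, 1.14 for Slc17a6, 0.73 for Ntng1 and 1.02 for Calb2, each with an interval above 0.

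Genes of neighbouring tissues also differed between the brain spots of the 2 libraries. The 13 skin and hair genes summed to 180.5 CPM in the flat-implant library and 740 CPM in the micropillar-implant library, with none at 0 in either. The 12 measured matrix and marrow genes summed to 709 and 1573 CPM, with 2 of them at 0 in the flat-implant library, and the 8 skeletal muscle genes to 144 and 206 CPM. Over all kept spots the skeletal muscle genes went the other way, with 2624 CPM against 493 CPM. In the brain spots with no UMI of the skin and hair list, 1257 in the flat-implant library and 1199 in the micropillar-implant library, the log2 ratio was 1.60 (0.98 to 2.37) for Tcf7l2, 1.63 (0.88 to 2.63) for Rgs16 and 1.69 (0.36 to 4.06) for Lef1. In the same spots it was 1.10 (0.56 to 1.71) for Slc17a6, 1.11 (0.66 to 1.61) for Ntng1 and 0.88 (0.48 to 1.30) for Calb2. Prkcd had 8 and 5 UMIs there, with a log2 ratio of -0.47 (-2.53 to 1.22). The ratios of the 6 higher members all kept an interval above 0 in brain spots without skin and hair transcripts. These spots were chosen after the data were seen, and spots with matrix and marrow transcripts were not left out. The part of neighbouring tissues in the members' ratios was not tested.

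**Figure D2:**
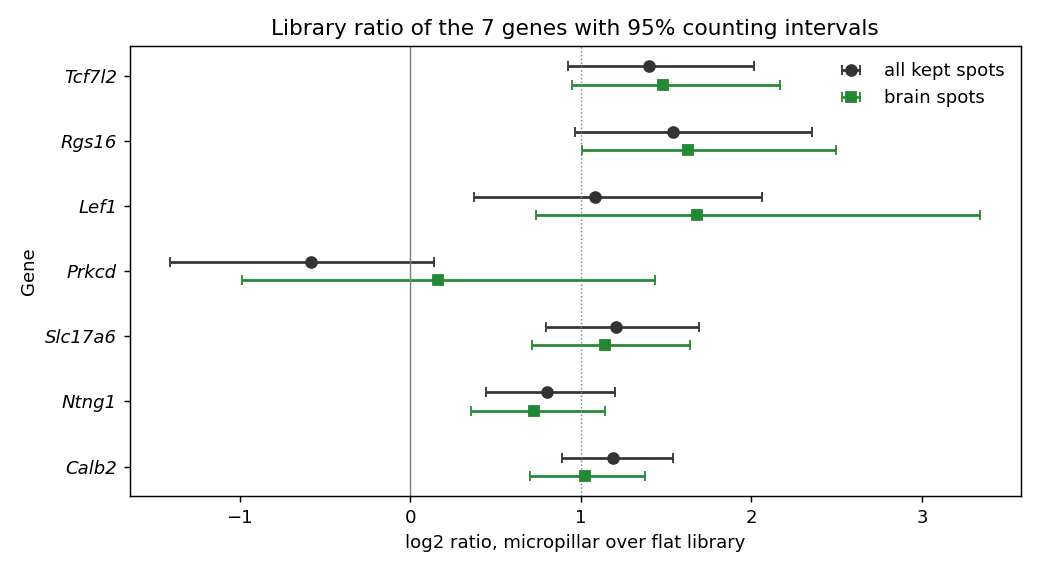
Log2 ratio of the micropillar over the flat-implant library for each gene, over all kept spots (black circles) and over brain spots (green squares), with 95% counting intervals. The solid line marks no difference and the dotted line a 2-fold difference, and Prkcd alone has intervals that reach below the solid line.

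The thalamic-list spots were defined without counts of the members. Their list was itself chosen with earlier results of these data known, so it is not an independent check of the members. They made up 34 of 1565 brain spots in the flat-implant library (2.17%, Clopper-Pearson interval 1.51 to 3.02) and 140 of 2067 in the micropillar-implant library (6.77%, 5.73 to 7.94). Their median depth was 764 UMIs in the former and 1322 in the latter. Under the rule first written, 3 of 298 neuronal spots (1.01%) and 30 of 420 (7.14%) were thalamic-list spots. The classes are ranges of a score: 30.5% of brain spots in the flat-implant library and 32.9% in the micropillar-implant library had a top score between 1.5 and 2.5.

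All 7 members were at a higher level in the thalamic-list spots of the micropillar-implant library than in its other brain spots, at least 2-fold in 7 of 7 and with an interval above 0 in 6 of 7. For comparison, 5.68% of 7920 genes with at least 20 CPM in 1 of the 2 sets and 10 UMIs over both were at least 2-fold higher. Prkcd did not reach 20 CPM and is not among those genes. The share of those genes with an interval above 0 was not counted. Tcf7l2 had 46 UMIs or 220 CPM in thalamic-list spots against 30.3 CPM in the other brain spots, a log2 ratio of 2.82 (2.29 to 3.41). Rgs16 had 34 UMIs or 163 CPM against 23.1 CPM, a log2 ratio of 2.76 (2.15 to 3.46). Ntng1 had 63 UMIs or 301 CPM against 49.6 CPM, a log2 ratio of 2.58 (2.14 to 3.06). These 3 members, whose promoters are given above, had the largest ratios.

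Slc17a6 and Calb2 were less concentrated in the thalamic-list spots. Slc17a6 had 40 UMIs or 191 CPM there against 52.2 CPM elsewhere in the micropillar-implant library's brain spots, a log2 ratio of 1.86 (1.32 to 2.40). Calb2 had 59 UMIs or 282 CPM against 94.2 CPM, a log2 ratio of 1.57 (1.14 to 2.00). Lef1 rested on 7 UMIs, with a log2 ratio of 1.39 (0.02 to 2.68), and Prkcd on 3 UMIs, with 1.16 (-1.16 to 3.13). Under the rule first written, the members together stood at 1291 CPM in thalamic-list spots and 252 CPM in other neuronal spots of the micropillar-implant library, a log2 ratio of 2.36 (1.79 to 2.91). At least 1 member was seen in 99 of 140 thalamic-list spots (70.7%) and in 425 of 1927 other brain spots (22.1%), which differ in depth.

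The thalamic-list spots of the flat-implant library held 28428 UMIs, and most members could hardly be measured in them. Calb2 had 9 UMIs there, or 317 CPM (145 to 601), against 49.4 CPM in the other brain spots. Ntng1 had 5 UMIs or 176 CPM (57.1 to 410.5) against 39.8 CPM, and Tcf7l2 had 3 UMIs or 106 CPM (21.8 to 308) against 14.3 CPM. Those 3 ratios had intervals above 0. Slc17a6 had 2 UMIs, Rgs16 and Lef1 1 each, and Prkcd 0, which allows up to 3 UMIs. At this depth 22.4% of 8142 genes with at least 20 CPM in 1 of the 2 sets and 10 UMIs over both were at least 2-fold higher in the flat-implant library's thalamic-list spots. Of the 7 members 6 were, Lef1 among them. Only 5 of the 7 met both limits, without Lef1 and Prkcd, so the 6 are not counted on the same base. Members together stood at 739 CPM (457 to 1129) there and at 1205 CPM (1061 to 1364) in the thalamic-list spots of the micropillar-implant library, so these intervals overlap.

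Outside the thalamic-list spots the members still differed between the libraries. In the other 1531 brain spots of the flat-implant library and 1927 of the micropillar-implant library, Tcf7l2 stood at 14.3 and 30.3 CPM, a log2 ratio of 1.03 (0.42 to 1.77). Rgs16 had a log2 ratio of 1.12 (0.42 to 2.03), Lef1 of 1.66 (0.64 to 3.50), Slc17a6 of 0.89 (0.44 to 1.41) and Calb2 of 0.92 (0.58 to 1.30) in the same spots. Ntng1 had a log2 ratio of 0.31 (-0.11 to 0.75) and Prkcd of 0.01 (-1.23 to 1.29), both with intervals that include no difference.

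**Figure D3:**
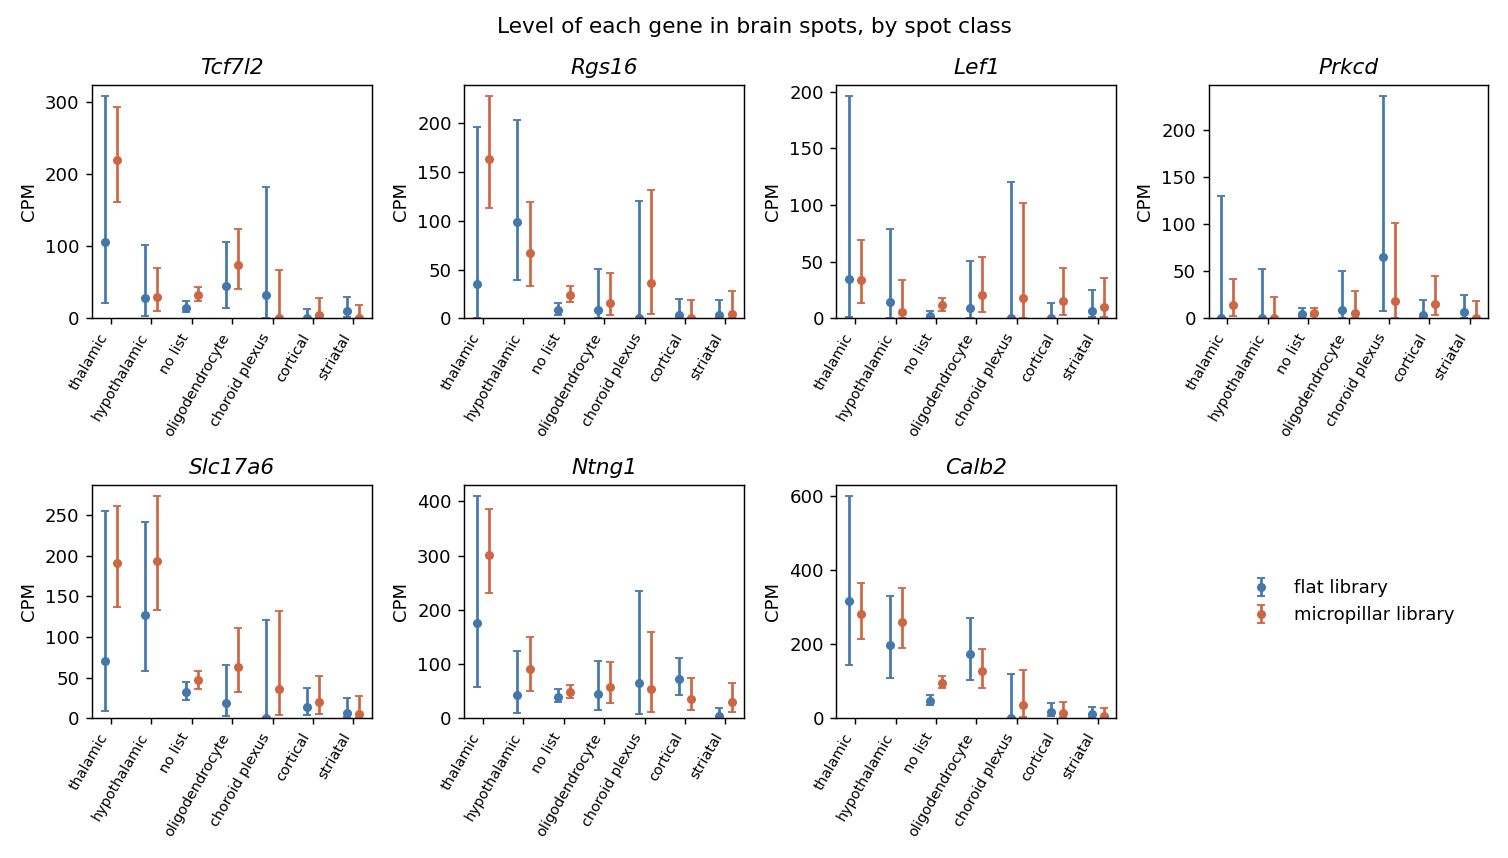
Level of each gene in CPM within the classes of brain spots, with exact Poisson 95% intervals, in the flat (blue) and micropillar (orange) libraries. Thalamic-list spots lead for Tcf7l2, Rgs16 and Ntng1 in the micropillar-implant library, while Slc17a6 and Calb2 are about as high in hypothalamic-list spots.

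The order of the classes differed from gene to gene. In the micropillar-implant library Tcf7l2 was highest in thalamic-list spots (220 CPM, 161 to 293), followed by oligodendrocyte-list spots (73.8 CPM, 40.3 to 124), spots led by no list (33.1 CPM, 24.7 to 43.4) and hypothalamic-list spots (30.3 CPM, 9.83 to 70.6). The intervals of the last 3 overlap, and cortical-list spots had 1 UMI. Choroid plexus-list and striatal-list spots had 0 Tcf7l2 UMIs. Rgs16 stood at 163 CPM (113 to 227) in thalamic-list spots and 66.6 CPM (33.2 to 119) in hypothalamic-list spots, whose intervals barely overlap. Its 11 UMIs in hypothalamic-list spots lay in 5 of 87 spots, and in the flat-implant library 7 Rgs16 UMIs lay in 2 of 72 such spots.

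Slc17a6 did not separate the thalamic-list from the hypothalamic-list spots, with 191 CPM (137 to 261) in the former and 194 CPM (132 to 273) in the latter of the micropillar-implant library. Calb2 stood at 282 CPM (215 to 364) and 260 CPM (188 to 351) in the same classes, then at 126 CPM (81.0 to 188) in oligodendrocyte-list spots. In the flat-implant library Calb2 stood at 197 CPM (108 to 331) in hypothalamic-list and 173 CPM (104 to 270) in oligodendrocyte-list spots. Ntng1 was highest in thalamic-list spots (301 CPM, 232 to 386), and hypothalamic-list spots came next with 90.8 CPM (50.8 to 149.7). Ntng1 was also found in cortical-list spots of the flat-implant library, with 20 UMIs or 71.5 CPM (43.7 to 110.4) in 14 of 134 spots. Striatal-list spots held few transcripts of any member, 14 UMIs of all 7 together in the flat-implant library and 11 in the micropillar-implant library.

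Prkcd went against its label in these sections. In the flat-implant library 34.4% of its UMIs lay in brain spots, and it was highest in skin and hair spots, with 12 UMIs or 71.6 CPM, and in matrix and marrow spots, with 7 UMIs or 53.4 CPM, beside 5.76 CPM in brain spots. Brain spots of the micropillar-implant library held 58.6% of its UMIs, at 6.57 CPM, with 8 UMIs or 24.8 CPM in skin and hair spots. Lef1 showed a similar split, with 7 UMIs or 41.7 CPM in the flat-implant library's skin and hair spots and 13 UMIs or 40.3 CPM in the micropillar-implant library's, beside 3.66 and 13.9 CPM in brain spots. Of the other 5 members, between 81.1% and 98.1% of the UMIs lay in brain spots of either library. For all genes together, brain spots held 1911341 of 2263345 UMIs in the flat-implant library and 2586386 of 3173632 in the micropillar-implant library. The Tcf7l2 shares, 81.1% (flat) and 83.1% (micropillar), were near those of all genes, as was the Calb2 share of 84.0% in the micropillar-implant library.

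The matrix and marrow spots of the micropillar-implant library also held members of this group. Calb2 had 43 UMIs or 178 CPM in 26 of 509 such spots, against 1 UMI in the 508 of the flat-implant library. Ntng1 had 17 UMIs against 2, Slc17a6 15 against 0 and Tcf7l2 13 against 3. Snap25 stood at 975 CPM in the matrix and marrow spots of the micropillar-implant library and 343 CPM in those of the flat-implant library, so neuronal transcripts moved with these counts, and their part was not tested.

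Several pairs of members were co-detected in brain spots of the micropillar-implant library more often than their own frequencies give. For each of 21 pairs, the spots with UMIs of both genes were compared with the number expected if the 2 genes were spread independently within each of 5 classes of spot depth. In the micropillar-implant library 17 of 21 pairs were above the expected number, 8 of them with an interval above it, and all 9 pairs with at least 5 spots expected were above it. Slc17a6 and Calb2 met in 46 spots against 19.9 expected, a ratio of 2.32 (1.70 to 3.09). Tcf7l2 and Ntng1 met in 30 spots against 9.05, a ratio of 3.31 (2.24 to 4.73), and these were 29.7% of the Tcf7l2 spots. Tcf7l2 and Slc17a6 met in 23 spots against 8.57, a ratio of 2.68 (1.70 to 4.03). Rgs16 and Ntng1 met in 17 spots against 6.25, a ratio of 2.72 (1.58 to 4.36), but in 0 spots against 0.83 expected after thinning to 500 UMIs. In thinned brain spots 12 of 21 pairs were above the expected number, 5 of them with an interval above it. In the 420 neuronal spots of the rule first written the counts were 9 of 21 and 0. The members were chosen with their co-detection known, and pairs of other genes were not counted. The expected numbers take account of depth but not of region. The pair counts are therefore descriptions only.

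The 2 transcription factors Tcf7l2 and Lef1 met in 9 micropillar spots against 1.86 expected, a ratio of 4.84 (2.21 to 9.18). Rgs16 and Lef1 met in 0 spots against 1.47 expected, too few to tell the pair from its expectation. Prkcd met each other member in 0 to 2 spots, with 0.36 to 2.23 expected. For the flat-implant library, 11 of 21 pairs were above the expected number, 2 of them with an interval above it, and 10 pairs met in 0 spots. The 2 were Tcf7l2 with Ntng1, in 7 spots against 0.88 expected (3.19 to 16.4 times), and Slc17a6 with Calb2, in 9 spots against 2.53 (1.63 to 6.75 times). All pairs together met 2.07 times the expected number of times in the flat-implant library and 2.08 times in the micropillar-implant library.

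**Figure D4:**
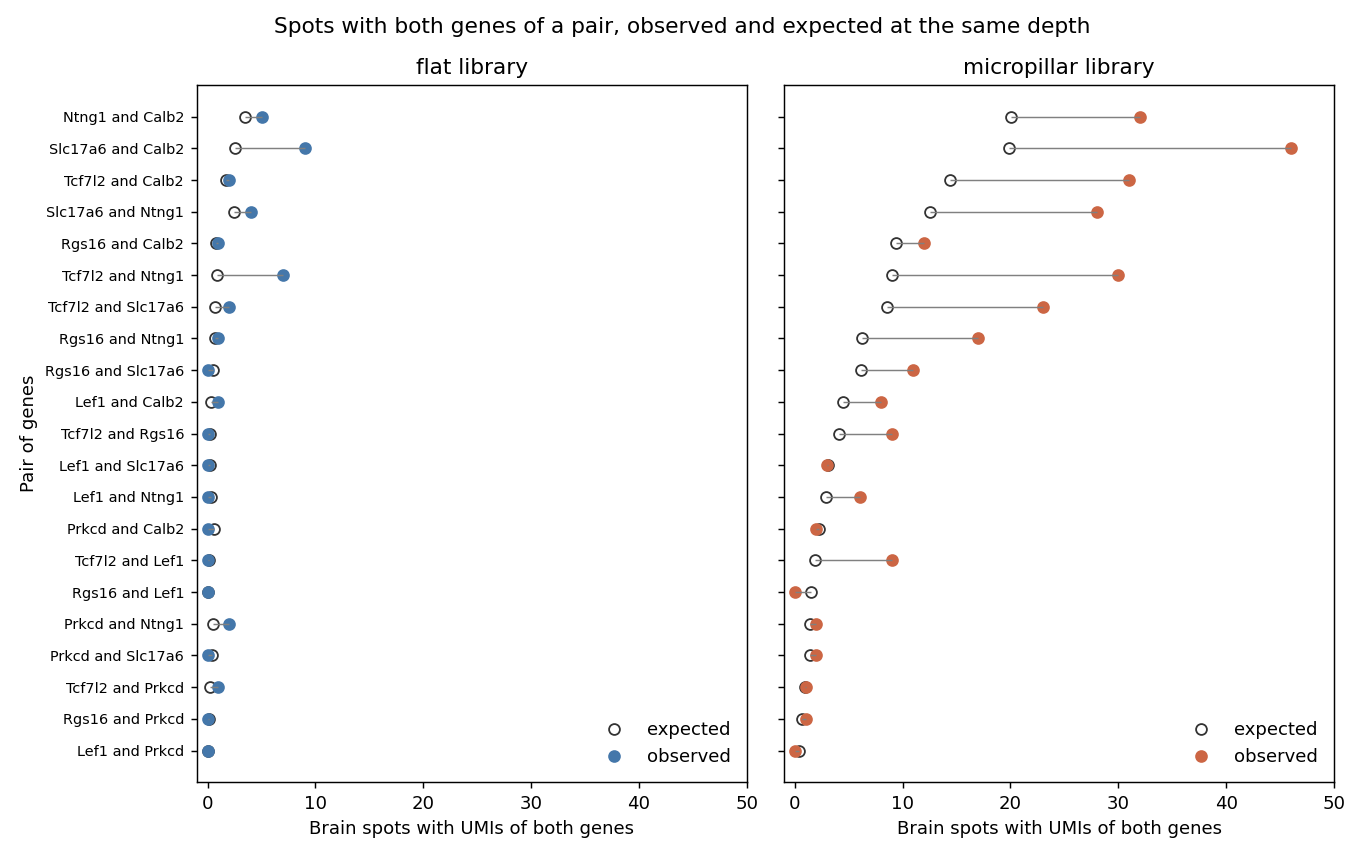
Number of brain spots with UMIs of both genes of a pair, observed (filled) and expected from each gene's own frequency at the same depth (open), for the 21 pairs in each library. In the micropillar-implant library the observed points lie to the right of the expected ones for 17 pairs, farthest for Slc17a6 with Calb2.

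Each member was then described in spots picked by the other 6, which restates a co-detection known when the members were chosen. Brain spots with UMIs of at least 2 other members, counted after thinning to 500 UMIs, were set against those with none. In the micropillar-implant library Tcf7l2 stood at 318 CPM in 21 such spots and 32.5 CPM in the 1524 spots with none, a log2 ratio of 3.25 (2.17 to 4.25). The ratio was 2.46 (1.31 to 3.45) for Ntng1, 2.34 (1.01 to 3.46) for Slc17a6, 1.94 (0.92 to 2.81) for Calb2 and 1.65 (0.02 to 2.98) for Rgs16. Lef1 had 3 UMIs in 30 such spots and a log2 ratio of 2.90 (0.64 to 4.87), and Prkcd had 1 UMI in 35 spots. In the flat-implant library at most 6 spots held 2 other members, and 4 of the 7 members had 0 UMIs in them.

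Spots with several members were few. In the flat-implant library 27 of 1565 brain spots held at least 2 members (1.73%, 1.14 to 2.5) and 4 held at least 3. Of 2067 in the micropillar-implant library, 152 held at least 2 (7.35%, 6.27 to 8.56), 42 held at least 3 and 1 held 5. After thinning to 500 UMIs the shares with at least 2 were 0.46% (0.17 to 1.00) and 2.03% (1.42 to 2.81). By the genes that are not members, 60 of the 152 micropillar spots with at least 2 members were thalamic-list spots (39.5%), against 6.77% of all brain spots, and 24 were hypothalamic-list spots (15.8%), against 4.21%. Another 59 of the 152 were led by no list (38.8%, against 55.8%). In the flat-implant library, 13 of the 27 spots with at least 2 members were led by no list (48.1%, against 51.9% of brain spots). Hypothalamic-list spots were 6 of the 27 (22.2%, against 4.60%) and thalamic-list spots 4 (14.8%, against 2.17%). Of the 42 micropillar spots with at least 3 members, 23 were thalamic-list spots and none was a striatal-list or cortical-list spot. These spots were deeper, with a median of 1466 UMIs for those with at least 3 members against 1053 for all brain spots.

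**Figure D5:**
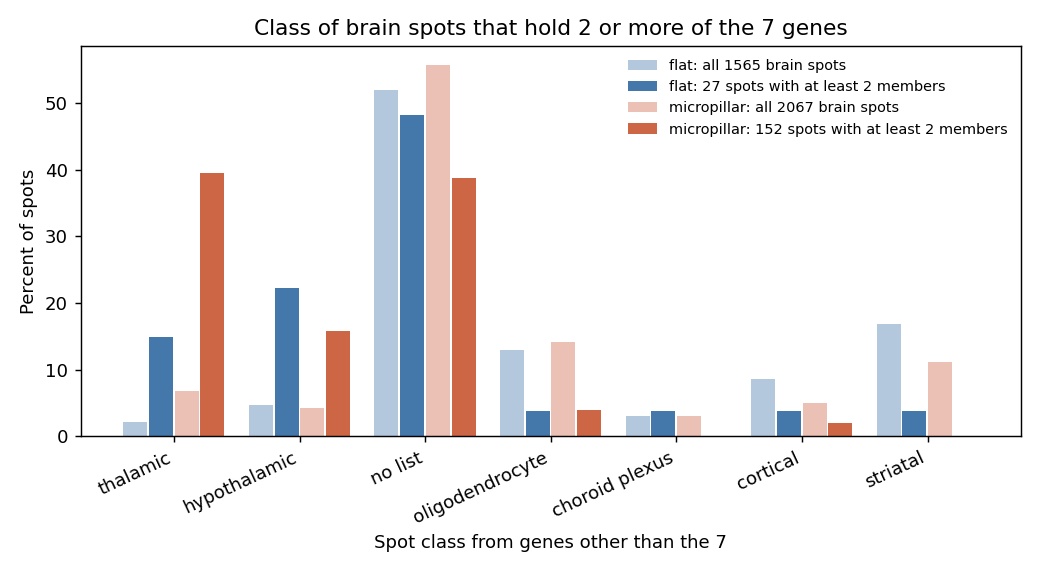
Percent of brain spots in each class, for all brain spots (pale) and for the spots with at least 2 of the 7 genes (dark), in the flat (blue, 27 spots) and micropillar (orange, 152 spots) libraries. Thalamic-list spots make up 6.77% of all brain spots and 39.5% of those with at least 2 genes in the micropillar-implant library.

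The other thalamic genes had ratios of both kinds. Of the 16, 12 had at least 5 CPM in the brain spots of 1 library, 10 of these were higher in the micropillar-implant library, 6 with an interval above 0 and none with an interval below 0, and their median log2 ratio was 0.78. Zic1, a zinc-finger transcription factor, had 126 UMIs in the flat-implant library and 433 in the micropillar-implant library, a log2 ratio of 1.33 (1.06 to 1.64). Shox2, a homeobox factor, had 7 UMIs against 34, with a log2 ratio of 1.60 (0.65 to 3.26). Cacna1g, a T-type calcium channel, was the lowest, with 11 and 12 UMIs and a log2 ratio of -0.26 (-1.62 to 1.01). Within the micropillar-implant library's thalamic-list spots, Zic1 held 220 of the list's 669 UMIs and Amotl1 131.

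Lists for other brain regions went different ways. Of 10 cortical genes, 5 had an interval below 0 and 1 above it, and Slc17a7, the vesicular glutamate transporter VGLUT1 of cortical neurons, stood at 999 CPM in the flat and 635 CPM in the micropillar-implant library's brain spots. Of 9 striatal genes, 6 had an interval below 0 and 1 above it, and Ppp1r1b, the striatal phosphoprotein DARPP-32, stood at 1920 and 1124 CPM. Of the 8 hypothalamic genes with at least 5 CPM, 5 had an interval above 0 and 1 below it, and Avp, the hormone vasopressin, stood at 1419 and 2406 CPM. Some genes went against their list: Neurod6, a cortical transcription factor, had a log2 ratio of 0.98 (0.17 to 2.07), and Drd1, a dopamine receptor of striatal neurons, 1.14 (0.14 to 2.67). Trh, the hypothalamic hormone thyroliberin, had -0.59 (-1.33 to 0.06), which includes no difference. The hypothalamic gene with an interval below 0 was Cartpt, at -0.59 (-1.24 to -0.007). All 3 measured hippocampal genes were higher, with a median log2 ratio of 1.04, beside 1.14 for the members. Of these, Prox1 had 1.04 (0.61 to 1.54), C1ql2 1.29 (0.77 to 1.95) and Fibcd1 0.22 (-0.49 to 0.99). The 5 measured reticular thalamic genes had a median log2 ratio of 0.65, all 5 with an interval above 0. The 4 measured habenular genes had a median of 0.19, with 1 interval above 0. None of these differences is tested between implants.

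The thalamic-list spots of the micropillar-implant library were low in striatal, hypothalamic and cortical genes. These lists competed with the thalamic list in naming spots, and the spots they led are among the other brain spots. Low values for them are thus partly set by the rule in either library, and nothing is read from them. Relative to other brain spots, the summed log2 ratio was -1.90 (-2.18 to -1.63) for the striatal list, -1.72 (-1.89 to -1.55) for the hypothalamic list and -0.67 (-0.88 to -0.47) for the cortical list. The reticular thalamic list, with 0.06 (-0.20 to 0.32), and the habenular list, with 0.03 (-0.56 to 0.57), included no difference. The 34 thalamic-list spots of the flat-implant library were also low in the striatal list, with -2.36 (-3.12 to -1.70), and the cortical list, with -1.04 (-1.63 to -0.52). They were instead high in the hypothalamic list, with 0.51 (0.20 to 0.80) and Avp at 1970 CPM against 1411 CPM, and in the reticular thalamic list, with 1.07 (0.42 to 1.66). The neuronal list was lower there, with -0.55 (-0.75 to -0.36). These differences between the libraries' thalamic-list spots were not tested.

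In the micropillar-implant library Slc17a7 stood at 282 CPM in thalamic-list spots against 666 CPM in other brain spots, the reverse of the Slc17a6 pattern. Slc17a7 belongs to the cortical list used to name spots, so its low level there is partly set by the rule. The hippocampal list was high, with a summed log2 ratio of 2.37 (2.02 to 2.73), which rested on Prox1, a homeobox factor, at 249 against 42.5 CPM, and C1ql2, a secreted synaptic protein, at 215 against 28.6 CPM. The rest of the list was not high there: Fibcd1 had 1 UMI, at 4.78 against 17.7 CPM, and Spink8 had 0 UMIs against 3 elsewhere. The neuronal list was level, with a log2 ratio of 0.00 (-0.06 to 0.06), and the skin and hair list had 0.07 (-0.17 to 0.31). The astrocyte list was higher, with 0.50 (0.29 to 0.70), including Agt at 1.66 and Aqp4 at 1.17, and so was the matrix and marrow list, with 0.33 (0.17 to 0.47), including the globin gene Hbb-bs at 0.62 (0.34 to 0.88). Their part in the members' levels was not tested.

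Few relatives of the members had an interval above 0 between the libraries' brain spots, while several had an interval below it. The shares of all genes with such intervals were not counted, so these counts have no base to be read against. The members were chosen on this contrast, and the difference from them was not tested. Of 11 measured genes of the Wnt and beta-catenin pathway, 2 had an interval above 0, none was at least 2-fold higher, and the median log2 ratio was 0.10; Ctnnb1, beta-catenin itself, had 0.16 (0.08 to 0.25) and Nkd1, a Wnt inhibitor, was highest with 0.97 (-0.14 to 2.63). Of 15 measured genes of the RGS family, none had an interval above 0 and 2 had one below it, with Rgs4 at -0.55 (-0.71 to -0.39) Rgs9, a striatal member, at -0.75 (-1.11 to -0.41) and Rgs10 highest at 0.52 (-0.06 to 1.17). Of 7 measured protein kinase C genes, none had an interval above 0 and 2 had one below it, with Prkcb at -0.50 (-0.65 to -0.35). All 4 genes of netrin-G2 and the netrin-G ligands were lower, 2 with an interval below 0. Slc17a7, the only other vesicular glutamate transporter with at least 5 CPM, had -0.65 (-0.75 to -0.56). Of the calcium buffers, Calb1 (calbindin) had a log2 ratio of 0.06 (-0.12 to 0.25) and Pvalb (parvalbumin) 0.64 (0.33 to 0.98), which was -0.14 (-0.39 to 0.12) over all kept spots. Within the micropillar-implant library, Rgs3 had 16 UMIs or 76.5 CPM in thalamic-list spots against 17.2 CPM, a log2 ratio of 2.09 (1.22 to 3.01); it was picked out after its values were seen.

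The counts in single spots were too sparse for a close match of patterns. For each gene with at least 100 UMIs in the brain spots of each library, 4106 in all, Pearson's correlation with each member was taken over the 1565 and 2067 spots, and the lower of the values in the 2 libraries was kept. The nearest genes were Elavl2 for Tcf7l2 (0.10), Tcea2 for Rgs16 (0.08), Klhdc8b for Lef1 (0.08), Dpysl3 for Prkcd (0.06), Resp18 for Slc17a6 (0.10), Gnas for Ntng1 (0.09) and Hap1 for Calb2 (0.17). For the members together the nearest were Hap1 (0.15), Nap1l5 (0.15) and Oxt (0.15). In the 298 and 420 neuronal spots of the rule first written the nearest genes were others, such as Tpt1 for Tcf7l2 (0.10) and Rasgrf1 for Rgs16 (0.12). The spots of a library share its depth and tissue layout, and values this low name no shared pattern.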

How the data were processed

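The deposited matrices hold counts: whole UMIs per gene and spot, which the authors made with Cell Ranger 7.2.0 against mm10, per the submitters' processing notes, and with Space Ranger 2.0.1, per the file headers. No source used here states the filters applied before deposit. Neither images nor spot positions entered, and no doublet caller was run on spots.

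The members and all gene lists were chosen with earlier results of these data known. Spots with at least 100 UMIs were kept, counts were summed over spots, and levels are counts per 1000000 UMIs (CPM). Ratios are log2 of CPM plus 1 over CPM plus 1. Intervals are exact Poisson for counts, Clopper-Pearson for shares and exact conditional binomial for ratios, at 95%, and a count of 0 allows 3 UMIs. They cover counting error in libraries of 2263345 and 3173632 UMIs, not differences between animals. No test was made, since each group has 1 library. Neural lists were scored against their share of brain-spot UMIs, with 11 of 12 neuronal and 12 of 13 matrix and marrow genes found in the files.

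Beyond the members, the rule for naming took from each list the gene with most UMIs and the genes highest and lowest by ratio, and the genes most alike in pattern. Not every gene it picked is printed. Bglap and Ibsp are named to check the tissue label, and Amotl1, Agt, Aqp4, Hbb-bs and Rgs3 within thalamic-list spots were named after their values were seen. Cartpt was likewise named for its interval. Python 3.11.15, numpy 2.4.6, scipy 1.17.1 and pandas 2.3.3 were used, with scaling alternatives from edgeR 4.0.16 and DESeq2 1.42.0 in R 4.3.3; the counting code was tested on simulated data. Sequences are from RefSeq (GRCm38.p6).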

Additional observations from a re-analysis of the deposited data

Results flagged for a closer look

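Calb2 appeared in data that the comparisons leave out. The 239 micropillar spots with fewer than 100 UMIs held 5 Calb2 UMIs among 15345, or 326 CPM, above the 196 CPM that a count of 0 would allow. Any count above 3 UMIs passes that limit, so passing it does not make the level unusual. Kept spots of that library stood at 106 CPM, and the difference was not tested. The 480 such spots of the flat library held 2 Calb2 UMIs among 22950, under that limit. No other member passed the limit in either library.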

How the results depend on the processing

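Among the members' library ratios and their levels in thalamic-list spots, none with an interval apart from 0 turned direction under the alternatives run; the other lists and single pairs were not part of these. Of 11 alternatives of scaling, pseudocount, depth and spot choice, 1 used neuronal spots only. Over the others the members' median log2 ratio of 1.19 stayed between 0.92 and 1.20. In neuronal spots only, members ran from 0.68 (Calb2) to 1.94 (Rgs16) and Lef1 gave no ratio. The value kept there was 1.27, that of Tcf7l2. Every member but Prkcd was higher in the micropillar library under each alternative that could give it a value; Prkcd was higher under 3 and lower under 8. Ntng1 reached its lowest ratio, 0.31, without thalamic-list spots.

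The share of thalamic-list spots depended on the score asked for. Among neuronal spots of the rule first written it was 3.69% (flat implant) and 10.2% (micropillar implant) at a score of 1.5, and 0% and 2.62% at a score of 3. Among brain spots it was 5.94% and 11.4% at 1.5, and 0.19% and 2.90% at 3. In the micropillar library it was 5.28% after thinning to 500 UMIs and 8.06% among spots with at least 500 UMIs. The ratio of observed to expected pairs in the flat library's neuronal spots, 1.38, was 0 after thinning, with 0.32 pairs expected, and the micropillar library's 1.69 became 2.49 in thinned brain spots. With no flat spot at a score of 3 in neuronal spots, the level there could not be computed.

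The wider set of brain spots, its own alternatives and the subsets without thalamic-list spots or skin and hair UMIs were chosen after seeing the data. No paired analysis was possible because each group has 1 library. Depth limits the flat library's thalamic-list spots most, and Lef1 and Prkcd everywhere.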
